A study of Mus musculus with 4 samples.

Results

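The 10 genes described here encode cathepsins, the proteases that lysosomes use to digest protein, and were taken by symbol (Ctsa, Ctsb, Ctsc, Ctsd, Ctsf, Ctsh, Ctsk, Ctsl, Ctss and Ctsz) from 32290 features of a single-cell RNA-seq series on mouse adipose tissue. All 10 were present in the count tables and all 10 had UMIs (unique molecular identifiers, 1 per captured transcript), 81002 in the cells kept. The series held 4 libraries in 4 groups with 1 library per group. WT carried Tie2e-cre, TERT+/+ and mTmG, and KO carried Tie2e-cre, TERTfl/fl and mTmG, so the Cre driver and the reporter were common to both genotypes. Tie2e-cre is a driver for endothelial cells, and mTmG switches from a red to a green reporter where Cre has acted. Tissue was subcutaneous (SC) or visceral intraperitoneal (IP), from male mice 7 months old, fed a high-fat diet for 5 months. How many mice went into each library is not given in the sources used here. With 1 library per group no difference could be tested between mice: intervals below are 95% intervals of counting error only, and KO and the library, or depot and the library, cannot be told apart.

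Cathepsins are made as inactive precursors, carried to the lysosome mostly by mannose-6-phosphate receptors and activated at acid pH. Most are cysteine proteases (Ctsb, Ctsc, Ctsf, Ctsh, Ctsk, Ctsl, Ctss, Ctsz), Ctsd is an aspartic protease and Ctsa a serine carboxypeptidase that also protects other lysosomal enzymes. Some have specialised roles: Ctsk degrades collagen and elastin, Ctss trims the invariant chain during antigen presentation, and Ctsc activates the granzymes of cytotoxic lymphocytes and the serine proteases of neutrophils. In adipose tissue they are known from stromal cells, which remodel the matrix around adipocytes, and from macrophages, which take up lipid and dead cells.

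All 10 are protein-coding genes, placed here on GRCm38. Chromosome 2 holds Ctsa (164832873 to 164841032) and Ctsz (174427493 to 174439039), and chromosome 7 holds Ctsc (88278085 to 88310888) and Ctsd (142375911 to 142388038). Ctsh is on chromosome 9 (90054152 to 90076089), Ctsl on chromosome 13 (64359337 to 64370890), Ctsb on chromosome 14 (63122462 to 63145923) and Ctsf on chromosome 19 (4855130 to 4860918). Ctsk and Ctss lie next to each other in the same orientation, on chromosome 3 at 95499256 to 95509362 and at 95526786 to 95556403 in GRCm38, with 17423 bases between them. Their promoter windows are shown because the neighbouring genes were found in different cells. The windows of Ctsd and of the second listed start of Ctsa are shown because they hold the letters CACGTG, the E-box core of the CLEAR element through which TFEB and TFE3 act on lysosomal genes. Windows run from 250 bases before to 50 bases after the RefSeq start in GRCm38.p6, 5′ to 3′, and capitals mark CACGTG.
Ctsk (chr3:95498960-95499259, + strand): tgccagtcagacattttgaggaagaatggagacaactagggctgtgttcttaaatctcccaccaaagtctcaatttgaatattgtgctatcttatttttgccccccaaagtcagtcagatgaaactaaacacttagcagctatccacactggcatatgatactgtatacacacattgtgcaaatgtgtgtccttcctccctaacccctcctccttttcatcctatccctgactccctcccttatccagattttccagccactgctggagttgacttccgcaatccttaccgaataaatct
Ctss (chr3:95526536-95526835, + strand): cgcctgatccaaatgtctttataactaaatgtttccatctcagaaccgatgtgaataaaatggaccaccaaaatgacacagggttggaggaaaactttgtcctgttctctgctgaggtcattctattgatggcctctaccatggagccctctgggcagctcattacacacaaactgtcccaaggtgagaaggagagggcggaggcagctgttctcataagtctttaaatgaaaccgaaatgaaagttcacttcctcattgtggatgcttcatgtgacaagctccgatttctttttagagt
Ctsd (chr7:142387778-142388077, - strand): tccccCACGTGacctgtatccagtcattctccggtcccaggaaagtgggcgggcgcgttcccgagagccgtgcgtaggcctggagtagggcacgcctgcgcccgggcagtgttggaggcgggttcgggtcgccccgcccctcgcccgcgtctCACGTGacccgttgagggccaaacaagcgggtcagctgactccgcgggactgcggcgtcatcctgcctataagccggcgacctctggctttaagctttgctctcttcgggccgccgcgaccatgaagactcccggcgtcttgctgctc
Ctsa, second start (chr2:164833523-164833822, + strand): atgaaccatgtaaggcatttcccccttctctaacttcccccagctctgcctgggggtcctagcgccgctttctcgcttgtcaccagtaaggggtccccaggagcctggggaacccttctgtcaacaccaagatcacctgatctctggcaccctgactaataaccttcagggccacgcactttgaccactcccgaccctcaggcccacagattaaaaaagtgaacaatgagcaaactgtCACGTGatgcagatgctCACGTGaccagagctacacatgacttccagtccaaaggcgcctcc
CACGTG reads the same on both strands and was found in 7.15% of 32851 RefSeq promoter windows. Of the 10 members, 8 had a window, and 4 of these (Ctsa, Ctsd, Ctsf and Ctsl) held the letters. The longer CACGTGA, searched on both strands and overlapping CACGTG, was in 3.77% of all windows and in those of 2 members, Ctsa and Ctsd. No CACGTG was in the windows of Ctsk, Ctss, Ctsc or Ctsz, which says only that these letters were absent from these bases. Ctsb and Ctsh had no entry.

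Of 4927 barcodes, 4119 were kept as cells and 3954 took a class from marker UMIs. Adipose stromal cells (ASC, the fibroblast-like progenitors of adipocytes, marked by Pdgfra, Dcn, Lum, Dpt and collagens) numbered 102, 206, 285 and 220 in library order (WT SC, KO SC, WT IP, KO IP). Phagocytes (macrophages, monocytes and dendritic cells) numbered 20, 20, 123 and 45 in the same order, T cells 470, 1173, 131 and 132, and B cells 306, 469, 22 and 24. Endothelial cells numbered only 2, 2, 17 and 5, so that no cathepsin could be compared in the cells that the Cre driver targets. Tert itself had 3, 2, 8 and 9 UMIs in all, too few to check the deletion. Whether Cre had acted in cells of other classes was not examined here. Median UMIs per kept cell ran from 6708 to 13054. The labels speak of cells in one place and of a suspension of nuclei in another. KO SC and WT IP shared 93 barcodes, 92 of them kept in both. Of those 92, 91 KO SC profiles were more like their own WT IP copy than any other, at a median of 605.5 against 35536 UMIs. These copies made up 77 of the 206 ASC of KO SC. Ratios over all ASC were computed with and without them, and their cause was not tested.

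Each cathepsin had its own distribution over cell classes. Ctsk and Ctsf were nearly confined to ASC. In library order ASC held 98.5%, 97.3%, 98.4% and 97.5% of all Ctsk UMIs, and between 86.7% and 94.2% of those of Ctsf, a cysteine protease with a long propeptide. Ctsl, a broad endopeptidase, was also mostly stromal, with 78.9% to 93.9% of its UMIs in ASC. As a level in CPM (counts for each 1000000 UMIs of the class), Ctsk in ASC was 477, 285, 507 and 333 in library order. In T cells it was between 0.518 and 2.33 CPM, and in IP phagocytes 7.49 and 5.32 CPM. The ASC levels thus stood more than an order of magnitude above every other class with at least 100 cells, in each library.

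**Figure D1:**
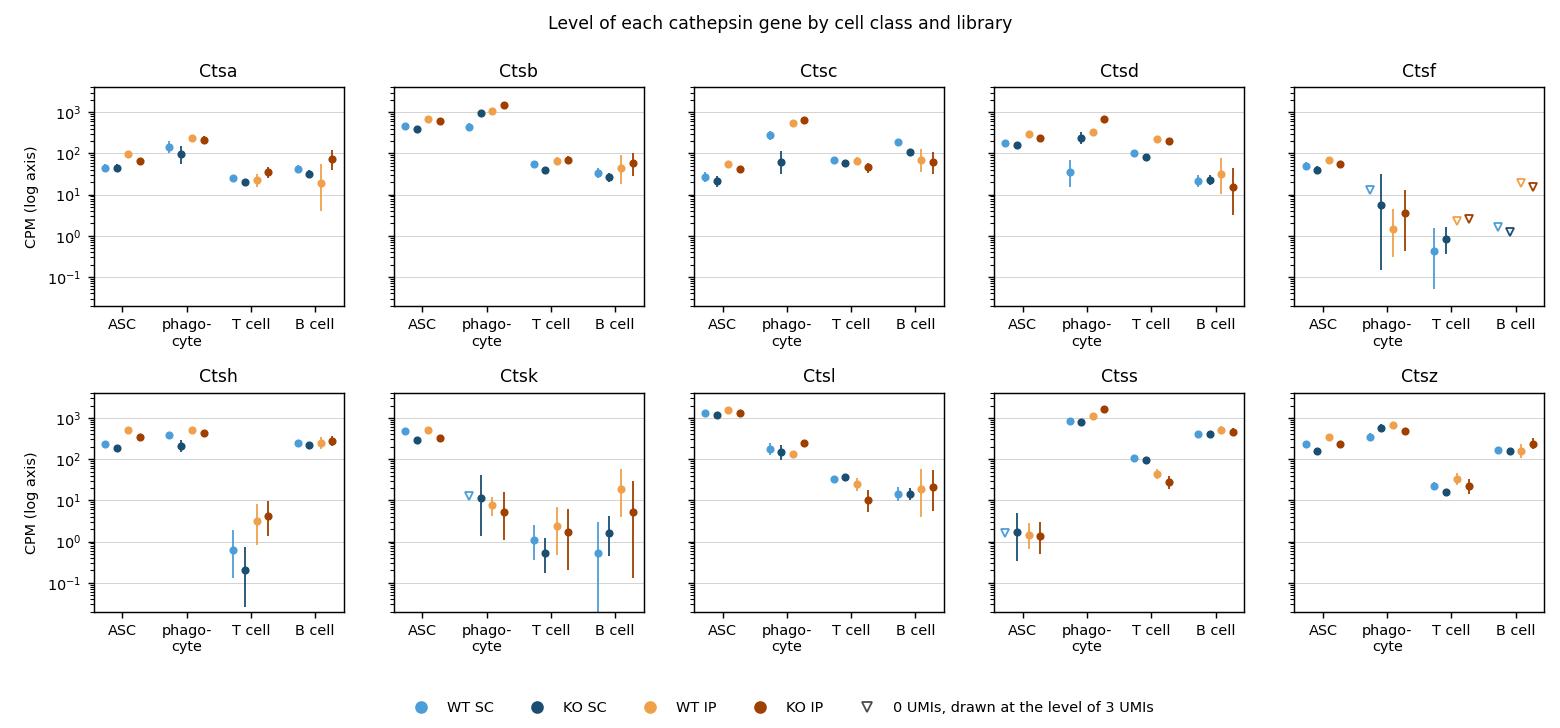
Level of each cathepsin gene in CPM (log axis) in ASC, phagocytes, T cells and B cells, with 1 point per library and bars for the exact Poisson 95% interval of its UMIs. Open triangles mark libraries with 0 UMIs and are drawn at the level that 3 UMIs would have. Ctsk and Ctsf stood high in ASC, Ctss in phagocytes and B cells, and Ctsh was low in T cells.

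Ctss, the neighbour of Ctsk, was instead nearly absent from ASC and was found in phagocytes, B cells and T cells. In ASC it had 0, 3, 9 and 6 UMIs in library order, at most 1.66 CPM. In phagocytes its level was 840, 786, 1125 and 1604 CPM in the same order, and in B cells of the SC libraries 404 and 405 CPM. In SC T cells it was lower, at 106 CPM (WT) and 97.2 CPM (KO), but these many cells held 33.0% and 44.6% of the Ctss UMIs there. With every cell thinned to 2000 UMIs, 52.2% of WT SC and 55.8% of KO SC B cells had a Ctss UMI (exact binomial intervals 46.4% to 57.9% and 51.1% to 60.5%, n = 301 and 453). In ASC, which serve here as the class that should lack it, the thinned share was 0.383% in WT IP, 1 of 261 cells, at a median depth of 23019 UMIs against 5929.5 and 4884 in the B cells. Without thinning, 86.9% and 82.9% of the SC B cells had a Ctss UMI. The same comparison run the other way gave Ctsk in 45.6%, 27.7%, 52.9% and 40.1% of ASC (WT SC, KO SC, WT IP, KO IP) and in 0.332% and 0.221% of SC B cells. Without thinning the ASC shares were 77.5%, 49.5%, 85.6% and 78.2%. The unthinned KO SC share covers all 206 ASC, 77 of them shallow copies of WT IP barcodes. Median depth of KO SC ASC was 5353.5 UMIs with the copies and 14659 without them.

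The other cathepsins were less restricted to 1 kind of cell. In IP, ASC held 72.7% (WT) and 82.3% (KO) of Ctsh UMIs and 57.2% and 59.7% of those of Ctsz. Of Ctsb they held 63.5% and 55.9% there, and of Ctsc 21.5% and 27.9%. Ctsh, an aminopeptidase, was in ASC, phagocytes and B cells but almost absent from T cells: its level was 245 and 226 CPM in SC B cells and 0.640 and 0.207 CPM in SC T cells, from 3 and 2 UMIs. Ctsz, a carboxypeptidase, likewise had 165 and 161 CPM in SC B cells against 22.4 and 15.5 CPM in SC T cells. Ctsf had 0 UMIs in the B cells of every library, where 3 UMIs would have been 1.60 CPM in WT SC and 1.24 CPM in KO SC. Ctsc was 545 and 641 CPM in IP phagocytes, 189 and 109 CPM in SC B cells and between 45.5 and 67.4 CPM in T cells. Ctsa, Ctsb and Ctsd were detected in ASC, phagocytes, T cells and B cells of all libraries, with Ctsb at 1048 and 1483 CPM in IP phagocytes and between 38.6 and 70.8 CPM in T cells.

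In ASC, KO stood below WT for nearly every cathepsin, and Ctsk was the member with the largest difference in both depots. Ctsk in SC was 477 CPM from 868 UMIs in WT and 285 CPM from 514 UMIs in KO, 1.67-fold lower, a log2 ratio of -0.74 (-0.90 to -0.58). In IP it was 507 CPM from 3126 UMIs in WT and 333 CPM from 1471 UMIs in KO, 1.52-fold lower, a log2 ratio of -0.61 (-0.70 to -0.52). Over all ASC the KO library was thus the lower for Ctsk in each depot. It was not the lower in the early progenitors of IP described below (146 CPM in WT, 233 CPM in KO). A difference was called when it reached 1.5-fold and its counting interval left out 0. Ctsk was the 1 member of 9 compared that was called lower in SC, where 4.75% of 9974 features were called lower and 5.59% higher. It was again the 1 of 9 in IP, where 4.43% of 12330 features were called lower and 7.21% higher (5.59% and 5.77% when ratios were instead centred on the median gene by median-of-ratios scaling). No member was called higher in either depot. Ctss had too few UMIs in ASC to be compared.

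Ctsz lay just short of the fold in both depots. Its level in SC was 235 CPM (WT) and 156 CPM (KO), a log2 ratio of -0.58 (-0.81 to -0.36), and in IP 336 CPM (WT) and 229 CPM (KO), a log2 ratio of -0.55 (-0.66 to -0.44). Under median-of-ratios scaling Ctsz reached the fold in both depots, at -0.60 and -0.62, and Ctsa in IP, at -0.59. Ctsh was 229 and 185 CPM in SC, a log2 ratio of -0.31 (-0.52 to -0.10), and 504 and 354 CPM in IP, -0.51 (-0.60 to -0.42). Ctsa differed between the depots in size: 43.4 and 43.8 CPM in SC, with a log2 ratio of 0.01 (-0.45 to 0.48), and 95.4 and 66.1 CPM in IP, with -0.53 (-0.74 to -0.32). These intervals overlap, and the difference between depots was not tested.

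The members with the smallest differences in IP were Ctsb and Ctsl. Ctsl was 1334 and 1162 CPM in SC and 1595 and 1298 CPM in IP (WT, KO), with log2 ratios of -0.20 (-0.28 to -0.11) and -0.30 (-0.34 to -0.25). Ctsb was 474 and 400 CPM in SC and 683 and 615 CPM in IP, with log2 ratios of -0.24 (-0.39 to -0.10) and -0.15 (-0.22 to -0.08). Ctsd, Ctsf and Ctsc had log2 ratios of -0.15, -0.32 and -0.35 in SC, where each interval included 0, and of -0.33, -0.33 and -0.40 in IP, where none did. Counted over the 9 members, 8 were below 0 in SC, 5 of them beyond the counting interval, with a median log2 ratio of -0.31 against 0.01 over all features. In IP all 9 were below 0 beyond the interval, with a median of -0.40 against 0.05 over all features. The share of all features below 0 beyond the interval was not computed, so these counts stand without a background. The interval narrows as UMIs rise, so small differences pass it in genes of many UMIs.

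**Figure D2:**
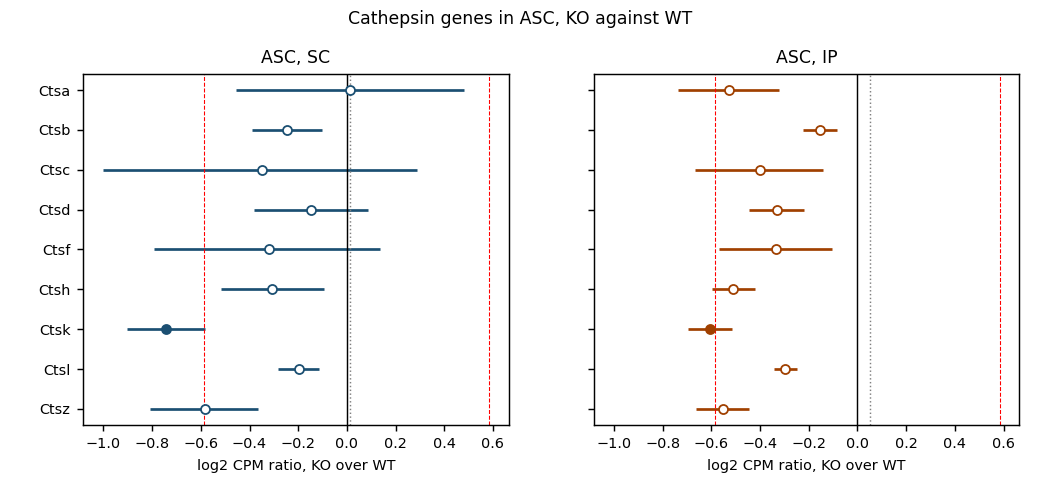
Log2 ratio of CPM in ASC, KO over WT, for the 9 cathepsins compared, in SC (left) and IP (right). Points are ratios of summed UMIs, bars are 95% counting intervals, filled points were called, dashed lines mark 1.5-fold and the dotted line the median of all features. Ctsk was the 1 filled point in each panel, at -0.74 and -0.61.

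Leaving the copied barcodes out of KO SC moved Ctsk in SC to -0.75 (-0.91 to -0.59) and the median of the members to -0.34, and no call changed. Weighting every cell equally, with the copies left out, gave -1.14 for Ctsk in SC and -0.76 in IP, but 0.75 for Ctsa and 0.15 for Ctsf in SC, so that the shared direction in SC held for 7 of 9 members there. Other values moved with genotype in the same cells. Haemoglobin UMIs in ASC, which come from red cells, were lower in KO for all 4 genes in both depots (median log2 ratio -7.89 in SC and -2.27 in IP). The summed level of the 8 B cell markers in SC ASC was 4.39 CPM in WT, with 5 markers at 0, and 46.0 CPM in KO, with 0 at 0, and that of the 8 T cell markers 32.4 and 57.1 CPM. In IP ASC the 8 macrophage markers summed to 74.8 CPM (WT) and 42.1 CPM (KO). Immediate early genes, which rise during tissue dissociation, were called higher in KO for 4 of 10 in SC and lower for 3 of 10 in IP. The part of these values in the cathepsin differences was not tested.

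ASC are not uniform, and of 9 cathepsins compared 7 stood lower in early progenitors than in committed cells of all 4 libraries, Ctsk, Ctsh, Ctsc and Ctsa beyond the counting interval in each. For the subclasses, here and below, the share over all features was not computed. Whether these counts exceed a general shift between the subclasses was therefore not tested. Cells were set apart by early progenitor markers (Dpp4, Pi16, Anxa3, Sema3c, Cd55) or by markers of commitment to the adipocyte lineage (Icam1, Pparg, Fabp4, Cd36, Lpl), with copies left out of KO SC. The early progenitors numbered 58, 84, 33 and 44 and the committed cells 22, 22, 129 and 54 in WT SC, KO SC, WT IP and KO IP, of 102, 129, 285 and 220 ASC. Ctsk was at 142, 87.0, 146 and 233 CPM in early progenitors and at 1058, 787, 646 and 383 CPM in committed cells, in that order of libraries. Committed cells were higher in every library, with log2 ratios of early over committed of -2.89, -3.17, -2.14 and -0.72 in library order. The gap was narrowest in KO IP, whose interval (-0.96 to -0.48) did not meet those of the other libraries.

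Ctsc and Ctsh followed Ctsk in being higher in committed cells. Ctsc was at 9.41, 6.15, 5.22 and 6.75 CPM in early progenitors, from 4 to 11 UMIs a library, and at 78.9, 53.7, 69.9 and 74.3 CPM in committed cells. Its log2 ratios of early over committed, -3.03, -3.06, -3.58 and -3.35, had overlapping intervals in all 4 libraries. Ctsh was at 121, 82.6, 132 and 205 CPM in early progenitors and at 482, 376, 626 and 408 CPM in committed cells, and its ratio was again nearest to 0 in KO IP, at -0.99 (-1.25 to -0.75). Ctsa was at 31.7, 30.8, 56.1 and 52.9 CPM in early progenitors and at 76.0, 61.4, 115 and 80.0 CPM in committed cells. Ctsb, Ctsf and Ctsz were also lower in early progenitors of each library, beyond the interval in all but KO IP for Ctsb and Ctsz and all but KO SC for Ctsf. Ctsl did not share this direction throughout: it was at 1204, 1118, 1149 and 1260 CPM in early progenitors and at 1590, 1071, 1797 and 1228 CPM in committed cells. Its log2 ratios were -0.40 (-0.55 to -0.26) in WT SC and -0.64 (-0.75 to -0.54) in WT IP, and 0.06 and 0.04, with intervals including 0, in the KO libraries. Ctsd was lower in early progenitors of both WT libraries beyond the interval, and its intervals included 0 in the KO libraries.

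**Figure D3:**
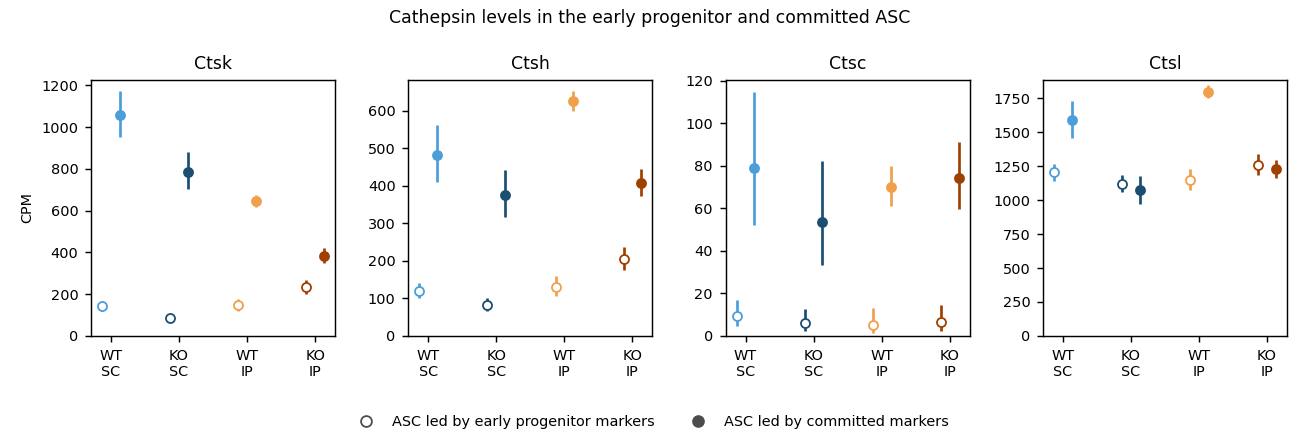
Level in CPM of Ctsk, Ctsh, Ctsc and Ctsl in ASC led by early progenitor markers (open) and by committed markers (filled), for each library, with exact Poisson 95% intervals. Ctsk, Ctsh and Ctsc stood higher in committed cells of all 4 libraries, and Ctsk in committed cells was lowest in KO IP, at 383 CPM.

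Within the subclasses, KO and WT could be compared among cells set apart by the same markers, though that their stage was alike was not tested. In committed cells Ctsk was lower in KO in both depots, with log2 ratios of KO over WT of -0.43 (-0.65 to -0.20) in SC and -0.75 (-0.90 to -0.61) in IP. Ctsl, Ctsz, Ctsh, Ctsd and Ctsb were also lower in committed cells of both KO libraries, each beyond the counting interval, with Ctsz at -0.75 and -0.68 and Ctsl at -0.57 and -0.55. In early progenitors the direction of Ctsk and Ctsh differed between depots beyond the interval in each, a difference that was not tested. Ctsa and Ctsd lay just below 0 in both depots there, with intervals that included 0. Ctsk in SC was lower in KO, at -0.70 (-1.08 to -0.34), and in IP it was higher in KO, at 0.67 (0.33 to 1.02), from 207 UMIs in 44 cells against 112 UMIs in 33 cells. Ctsh in early progenitors was likewise lower in KO in SC, at -0.54 (-0.94 to -0.16). In IP it was higher in KO, at 0.63, with an interval from 0.28 to 1.002. No cell held more than 8.24% of the KO IP early progenitor UMIs of these 2 genes. The share of committed cells among ASC also differed between the libraries, as the counts above give, and its part in the differences over all ASC was not tested.

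Between depots, all 9 cathepsins compared stood higher in IP than in SC ASC, though to different degrees. In WT, Ctsh was 229 CPM in SC and 504 CPM in IP, a log2 ratio of IP over SC of 1.14 (0.99 to 1.29), and in KO 185 and 354 CPM, 0.93 (0.76 to 1.11). Ctsc was 26.9 and 56.3 CPM in WT and 21.1 and 42.6 CPM in KO, with log2 ratios of 1.05 and 0.999. Ctsa was 43.4 and 95.4 CPM in WT, a log2 ratio of 1.13 (0.80 to 1.49), and 43.8 and 66.1 CPM in KO, 0.59 (0.23 to 0.97). Ctsd was called in WT, at 0.72, and lay at 0.54 in KO, and Ctsb was called in KO, at 0.62, and lay at 0.53 in WT. Thus 4 of 9 members were called higher in each genotype, beside 12.7% of 11754 features in WT and 14.6% of 11423 in KO, and none was called lower, beside 11.3% and 10.6%. The calls of Ctsh, Ctsc and Ctsa were common to both genotypes. In KO the call of Ctsa was kept in 7 and that of Ctsb in 11 of 15 alternatives, and leaving out the copies put Ctsa at 0.584, just under the fold.

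Ctsk and Ctsl differed least, with log2 ratios of IP over SC of 0.09 (-0.02 to 0.20) and 0.26 (0.19 to 0.32) in WT and 0.22 (0.08 to 0.37) and 0.16 (0.09 to 0.23) in KO. The median over the 9 members was 0.53 in WT and 0.55 in KO, against 0.07 and 0.09 over all features. Within the subclasses the depots compared otherwise for some members. Ctsa, Ctsb, Ctsd, Ctsh and Ctsz stayed above 0 in both subclasses of both genotypes, Ctsb beyond the interval in each. Ctsb was at 0.31 (WT) and 0.71 (KO) in early progenitors and at 0.34 and 0.40 in committed cells. Ctsf and Ctsl fell below 0 in some of these comparisons. In committed cells Ctsk was lower in IP, at -0.71 (-0.87 to -0.55) in WT and -1.04 (-1.25 to -0.83) in KO, while Ctsh was at 0.37 and 0.11 and Ctsc at -0.20 and 0.44. In early progenitors Ctsk was at 0.04 (-0.32 to 0.39) in WT and higher in IP in KO, at 1.42 (1.07 to 1.78). Ctsh there was at 0.13 (-0.26 to 0.51) in WT and 1.31 (0.94 to 1.68) in KO. The 22 committed cells in each SC library limit the values of committed cells. With every cell weighted equally and all cells kept, no member was called higher in IP in KO and the median there was 0.09, and leaving out the copies of KO SC returned 2 calls.

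**Figure D4:**
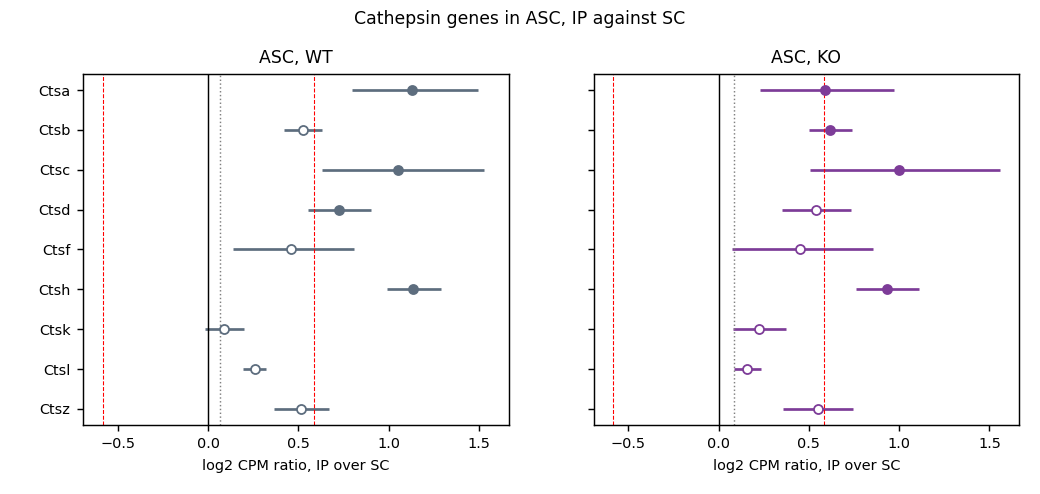
Log2 ratio of CPM in ASC, IP over SC, for the 9 cathepsins compared, in WT (left) and KO (right), with 95% counting intervals, filled points for calls, dashed lines at 1.5-fold and a dotted line at the median of all features. All 9 members lay above 0 in both genotypes, with Ctsk and Ctsl nearest to it.

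In IP phagocytes, Ctsd and Ctsl were called higher in KO, 2 of 8 members compared, beside 8.71% of 8189 features, and none was called lower, beside 6.34% (6.47% and 8.49% under median-of-ratios scaling, which moved the median of all features from 0.02 to -0.08 and turned no member). Ctsd was 329 CPM from 659 UMIs of 123 WT cells and 696 CPM from 393 UMIs of 45 KO cells, a log2 ratio of 1.08 (0.90 to 1.26). The Ctsd value rested on 1 cell. In KO, 223 of the 393 Ctsd UMIs and 443 of the 837 Ctsb UMIs came from the same macrophage, a cell of 26804 UMIs with 385 macrophage marker UMIs, 0 ASC, T and B cell marker UMIs and 174 UMIs of the lipid-associated markers Trem2, Gpnmb, Spp1, Cd9 and Mmp12. Without the cell richest in the gene in each library, Ctsd was at 0.03 (-0.23 to 0.27), and Ctsb went from 0.50 (0.38 to 0.62) to -0.44 (-0.60 to -0.28).

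Ctsl kept its call without the richest cells. Its level was 134 CPM (WT) and 250 CPM (KO), with a log2 ratio of 0.90 (0.60 to 1.20), and 0.77 (0.43 to 1.10) without the richest cells. In KO the richest cell held 20.6% and the 3 richest held 48.2% of its UMIs. At 2000 UMIs a cell the shares of cells with a Ctsl UMI were 16.4% (10.3% to 24.2%) in WT and 25% (12.7% to 41.2%) in KO, which overlapped, and 53.7% and 57.8% without thinning. Ctss was 1125 and 1604 CPM, 0.51 (0.40 to 0.62), and 0.45 without the richest cells, while Ctsz was 680 and 489 CPM, -0.47 (-0.67 to -0.29), and -0.43 without them. The phagocytes were led by macrophage, monocyte and dendritic cell markers in 56, 43 and 24 cells in WT and 14, 21 and 10 in KO. Ctsl was 133 CPM in WT and 380 CPM in KO in the monocytes and 179 and 244 CPM in the macrophages. Dendritic cells had the lowest Ctsd of these kinds in both libraries, 29.9 and 54.7 CPM, and the highest Ctsh, 654 and 595 CPM. In the same cells 4 of 10 immediate early genes were called higher in KO (median log2 ratio 0.30), and the 4 haemoglobin genes were called lower (median -5.11, and 0.30 without the barcodes that libraries share). The part of this mix and of these values in the differences was not tested. Resident macrophages, by Lyve1, Timd4, Folr2, Cd163 and Cbr2, numbered 6 in WT and 0 in KO and were not compared.

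**Figure D5:**
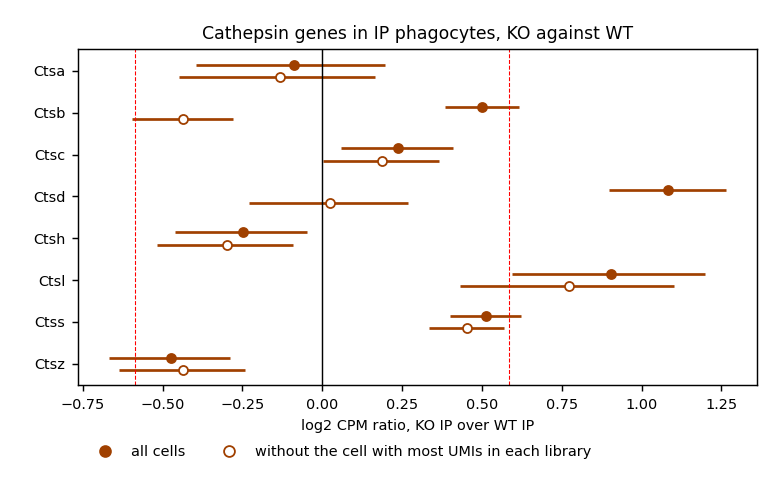
Log2 ratio of CPM in IP phagocytes, KO over WT, for the 8 cathepsins compared, over all cells (filled) and without the cell with most UMIs of that gene in each library (open), with 95% counting intervals and dashed lines at 1.5-fold. Ctsd fell from 1.08 to 0.03 and Ctsb turned from 0.50 to -0.44, while the other 6 kept their direction.

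In T and B cells, the members called between genotypes were Ctsl, Ctss and Ctsc. In SC T cells no member of 7 compared was called, beside 2.62% of 11344 features called higher and 9.9% lower. With median-of-ratios scaling these shares were 4.43% and 5.95%, and the median over all features moved from -0.14 to 0.01. The member furthest from 0 was Ctsb, 55.9 CPM (WT) and 38.6 CPM (KO), with a log2 ratio of -0.53 (-0.77 to -0.30). In IP T cells Ctsl (24.8 CPM in WT, 10.1 in KO, 32 and 12 UMIs) and Ctss (44.2 and 27.8 CPM, 57 and 33 UMIs) were called lower, with log2 ratios of -1.26 (-2.39 to -0.30) and -0.66 (-1.33 to -0.03), 2 of 7 members beside 5.62% of 8448 features, and none was called higher, beside 10%. The shares were 8.30% lower and 6.87% higher with median-of-ratios scaling. The Ctss call was kept in 9 of 14 alternatives. In the same cells Cd74, the invariant chain of antigen-presenting cells, had 249 UMIs in WT and 33 in KO, and its part was not tested. The richest WT cell held 21.9% of the Ctsl UMIs of its library. Naive T cells, set apart below and higher in Ctsl, numbered 21 in WT IP and 8 in KO IP. The part of this mix in the Ctsl difference was not tested. In SC B cells Ctsc was called lower, from 189 CPM (WT) to 109 CPM (KO), a log2 ratio of -0.79 (-1.03 to -0.56), 1 of 8 members beside 5.32% of 8887 features. None was called higher, beside 2.46% (3.63% lower and 3.76% higher with median-of-ratios scaling). The richest B cell held 8.76% of the WT Ctsc UMIs, and at 2000 UMIs a cell the shares of cells with a Ctsc UMI were 21.6% (17.1% to 26.7%) and 18.3% (14.9% to 22.2%), which overlapped. Ctss, Ctsz and Ctsh in these B cells had log2 ratios of 0.00, -0.04 and -0.12, with intervals that included 0. The 4 haemoglobin genes were called lower in KO in SC B cells, SC T cells and IP T cells (median log2 ratios -3.15, -1.88 and -5.18). Of 10 dissociation and immediate early genes, 4 were called lower and 1 higher in SC B cells, where Hspa1a had 1781 UMIs in WT and 145 in KO. In SC T cells 3 were called lower, and in IP T cells none was called. The part of these values in the differences was not tested.

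Between depots, Ctsd was called higher and Ctss lower in IP T cells of both genotypes. Ctsd was 103, 81.0, 219 and 196 CPM in library order, with log2 ratios of IP over SC of 1.09 (0.88 to 1.31) in WT and 1.28 (1.06 to 1.49) in KO. Ctss was 106, 97.2, 44.2 and 27.8 CPM in the same order, lower in IP by log2 ratios of -1.25 (-1.68 to -0.86) and -1.78 (-2.35 to -1.31). Ctsl was 33.1, 37.2, 24.8 and 10.1 CPM, with -0.40 (-1.01 to 0.14) in WT and a called -1.82 (-2.85 to -1.06) in KO. In WT, 1 of 7 members was called higher and 1 lower, beside 12.3% and 5.81% of 9967 features (8.29% and 9.65% with median-of-ratios scaling). In KO, 3 were called higher and 2 lower, beside 25.1% and 5.46% of 10869 features, with the median of all features at 0.33. Under median-of-ratios scaling these shares were 11.5% and 15.8%, that median was -0.11, and Ctsa (0.36) and Ctsb (0.44) were no longer called.

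The depots also differed in which T cells they held. By markers chosen after the data had been seen, naive T cells numbered 303, 817, 21 and 8 and effector or memory T cells 82, 177, 80 and 98 in WT SC, KO SC, WT IP and KO IP. Ctsl was higher in naive cells: 44.1 CPM against 12.5 CPM in WT SC, 43.7 against 8.11 in KO SC and 61.9 against 16.5 in WT IP, where 53.8% of the 13 naive UMIs came from 1 cell. Ctsd was higher in effector or memory cells, at 144 against 89.6 CPM in WT SC and 116 against 68.0 CPM in KO SC. Within effector or memory cells Ctsd was still higher in IP, by log2 ratios of 0.84 (0.51 to 1.17) in WT and 0.80 (0.49 to 1.12) in KO, and Ctss still lower, by -1.22 (-1.92 to -0.60) and -2.15 (-3.02 to -1.45). Ctsl there was at 0.39 (-0.87 to 1.70) in WT.

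The genes that work with cathepsins were taken by list. Among lysosomal hydrolases other than cathepsins in ASC, 2 of 27 compared were called lower in SC and 2 of 28 in IP, and none higher, with median log2 ratios of KO over WT of -0.21 and -0.04. Over all features 4.75% were called lower and 5.59% higher in SC, and 4.43% lower and 7.21% higher in IP, so that these counts are near the background. Hexa, a subunit of beta-hexosaminidase, was lower in KO of both depots, 159 and 103 CPM in SC (log2 ratio -0.62) and 272 and 149 in IP (-0.86). The other calls were Glb1 in SC, at -0.75, and Acp5, the tartrate-resistant phosphatase that osteoclasts share with Ctsk, in IP, at -1.07. Of the lysosomal membrane proteins and activators, Cd63 was lower in IP (1407 and 840 CPM, -0.74), and Laptm5 and Cln3 were higher in SC, from 20 against 3 and 30 against 9 UMIs. The proton pump had no call among 15 genes in either depot, with medians of 0.12 and -0.06. The transcription factors Tfeb, Tfe3 and Mitf had none among the 3 compared of a list of 4, with medians of -0.04 and 0.15.

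Against the same background of 4.75% lower in SC and 4.43% in IP, sorting genes were called lower for 1 of 10 in SC (Nagpa, -1.15) and 2 of 12 in IP (Gnptg, -0.73, and Nagpa, -0.61), which make or finish the mannose-6-phosphate tag. Among inhibitors, Ctla2a was higher in KO in SC, with 126 against 14 UMIs (log2 ratio 3.14), and lower in IP, with 36 against 101 UMIs (-0.99). Cst6 was also lower in IP, with 4 against 26 UMIs, and inhibitors as a list were called lower for 3 of 6 in IP. Legumain (Lgmn), which processes cathepsin precursors, was lower in IP (129 and 81.3 CPM, -0.66) and was the 1 of 2 compared of its list. Of the proteins that cathepsins act on, elastin (Eln) was lower in KO in SC, 399 and 231 CPM (-0.79), and higher in KO in IP, 295 and 698 CPM (1.24). For neither Ctla2a nor Eln was the difference between depots tested. Cd74 was higher in KO in both, with 198 against 10 UMIs in SC and 49 against 33 in IP, and Gzma had 31 UMIs against 0 in SC, where B and T cell markers were also higher.

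In IP phagocytes, where 8.71% of all features were called higher and 6.34% lower, the same lists were called higher and lower for 3 and 1 of 25 hydrolases (Ids and Ppt1 higher, Acp5 lower), 2 and 2 of 5 inhibitors (Ctla2b and Serpinb6a higher, Ctla2a and Cstb lower), 0 and 1 of 15 proton pump genes (Atp6v0e lower), and 1 and 0 of 4 transcription factors (Tfec higher, from 12 against 18 UMIs). Ctse, an aspartic cathepsin outside the 10, was higher from 13 against 15 UMIs. Cstb, a cytosolic inhibitor of cysteine cathepsins, was 475 CPM in WT and 285 CPM in KO. No sorting gene of 11 and no membrane protein or activator of 17 was called.

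Likeness of pattern was measured as Pearson's r of log2(CPM + 1) over 14 class by library profiles, among 11055 genes. The profiles share libraries and classes, so r is a description without a test. Most like Ctsk were Gsn (0.986), Atp8b1 (0.985) and Nrep (0.985), and its nearest member was Ctsf (0.965), while Ctss was at -0.744. Most like Ctsz were Atg4c (0.977), Apoe (0.975) and Lgmn (0.959), and most like Ctsa were Serpinb8 (0.945), Gusb (0.944) and Ppt1 (0.938). Ctsl was most like Smo (0.986), Fam149a (0.984) and Pmp22 (0.984), Ctsb like Gab1 (0.981), Dab2 (0.977) and Ifitm2 (0.977), and Ctsd like Map2k3 (0.941), Zyx (0.940) and Txnrd1 (0.936). Ctss was most like Dclre1c (0.984), Ms4a4c (0.975) and Nrros (0.974), Ctsh like Rufy3 (0.979), Spop (0.965) and Scpep1 (0.957), Ctsf like B4galt2 (0.993), Zfp521 (0.991) and Sec31a (0.989), and Ctsc like Dennd4b (0.948), Pot1b (0.913) and Vav3 (0.913).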

How the data were processed

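The authors deposited raw UMI counts per gene and barcode, from 10x Genomics 3′ v3 libraries. The file headers name Cell Ranger 7.0.0, and the submitters' processing notes STAR 2.6 and mm10. Whether intronic reads were counted is not given in the sources used here. A barcode was kept with 200 or more genes and no more than 25% of mitochondrial UMIs, and Scrublet calls (scanpy 1.11.5, expected rate 5%) were removed, 17 barcodes or 0.411% of those filtered, so doublets were treated only in part. A cell took the class with most marker UMIs, given at least 3 UMIs from 2 markers, and was mixed when an unrelated class with 3 or more markers held over 20% of these UMIs. Mesothelial cells were an exception. A cell led by ASC markers was set to mesothelial when it had 4 or more mesothelial markers, and its ASC markers did not make it mixed. This scoring rule was refined after an earlier form had left too many cells mixed: 32 cells stayed mixed and 133 without class.

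For each class in each library the UMIs were added up and divided by the class total (CPM). Ratios used 0.5 UMI added to each sum, features with 20 or more UMIs over the pair of libraries and classes of at least 30 cells (subclasses, 10 cells within and 20 between libraries). Intervals are exact Poisson for levels, Clopper-Pearson for shares and conditional binomial for ratios, and cover counting error only. A change was called at 1.5-fold with an interval leaving out 0. There was no replicate, hence no test and no p-value. For shares, cells were thinned to 2000 UMIs and shallower cells left out. The ratio and its interval were run on simulated Poisson class sums. These follow the model behind the interval and hold no spread between cells, so they check the calculation only. The 10 members, the 11 lists and the markers were chosen with earlier results of these data known. Named genes were the members, up to 2 called genes per direction, list and comparison in ASC and phagocytes, and the 3 genes most like each member. Alternatives changed the added UMI, the UMI minimum, the scaling, the cell filters, the class rule and the weight of cells. Python 3.11.15, numpy 2.4.6, scipy 1.17.1 and matplotlib 3.10.9 were used. Gene positions came from GENCODE on GRCm38 (mm10) by gene identifier.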

Additional observations from a re-analysis of the deposited data

Results flagged for a closer look

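In IP, 4 cathepsins moved one way in early progenitor ASC and the opposite way in committed ASC between KO and WT, each beyond its counting interval. Ctsa, Ctsd, Ctsf and Ctsz, the other members compared in both subclasses, did not. The share of all features that turned in this way was not computed. The log2 ratios of KO over WT in early progenitors and in committed cells were 0.67 and -0.75 for Ctsk, 0.63 and -0.62 for Ctsh, 0.26 and -0.36 for Ctsb, and 0.13 and -0.55 for Ctsl. They rest on 44 KO and 33 WT early progenitors and on 54 KO and 129 WT committed cells of 1 library each, and the difference between the subclasses was not tested.

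Cathepsin UMIs were also found in barcodes that the comparisons did not use. Barcodes under the gene minimum, whose UMIs were 97.5% to 97.7% haemoglobin, held 22, 15, 41 and 38 cathepsin UMIs (WT SC, KO SC, WT IP, KO IP). Other barcodes left out, over the mitochondrial limit or called doublets, held 50, 105, 157 and 451 in the same order. These counts were above the 3 UMIs that a count of 0 allows.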

How the results depend on the processing

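Under 15 alternatives, 5 of them chosen after seeing the data, the calls of Ctsk lower in KO ASC of both depots, of Ctsl higher in KO IP phagocytes and of Ctsc lower in KO SC B cells were kept in each. Over all comparisons, 1124 recomputed member ratios stayed within the counting interval, 60 moved beyond it and 9 whose interval had left out 0 turned direction. Counting also ratios whose interval included 0, 31 changed sign. Members called lower in KO ASC of SC were 2 under median-of-ratios scaling, a minimum of 500 genes, doublet calls kept, rival shares of 50% and 5% and cells weighted equally (also without copies); of IP, 3 under median-of-ratios scaling, 2 at a rival share of 5%, 3 without shared barcodes and 5 with cells weighted equally (also without copies). For these weighted values the interval is that of the summed UMIs. With cells weighted equally the median of the members in KO against WT was -0.012 in SC ASC, Ctsb there was at 0.29, 1 member was called lower in IP phagocytes and 1 in IP T cells (the same without copies). In IP T cells 1 was called lower at rival shares of 50% and 5% and without shared barcodes, and 0 at a minimum of 100 UMIs, where neither gene was compared. Keeping doublet calls put Ctsc in IP ASC at 0.39. Without the richest cell the median of the members in IP phagocytes was -0.053 with 1 called higher, Ctsb there was at -0.44, and 2 members were lower in IP against SC WT T cells.

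For IP against SC in KO ASC, members called higher were 2 under median-of-ratios scaling, 1 at a rival share of 5%, 0 with cells weighted equally (median 0.086) and 2 when copies were also left out. Turned directions there were Ctsk at -0.26 (rival share of 5%) and, with cells weighted equally, Ctsf at -0.031, Ctsk at -0.027 and Ctsl at -0.31, or, also without copies, Ctsa at -0.011 and Ctsl at -0.048. In WT ASC the median at a rival share of 5% was 0.38. In T cells, members called higher were 2 in WT with 1 UMI added or at most 10% mitochondrial UMIs, and 1 in KO under median-of-ratios scaling. In IP phagocytes the median of the inhibitors turned to -0.14 (at most 10% mitochondrial UMIs), -0.097 (cells weighted equally, also without copies) and -0.061 (no shared barcodes), and that of haemoglobin to 0.30 without shared barcodes. The cause was not tested except where the alternative's construction shows it.

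No paired analysis was possible because the labels give no replicate numbers and each group is 1 library. Leaving out a replicate was likewise not possible. With thinning to 1000 UMIs or none, 192 shares moved and 88 did not, as depth sets the chance of seeing a UMI. Depth limits the classes of few cells and the genes near the level of 3 UMIs.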

Other observations

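Classes too small to compare still showed where some cathepsins stood. NK cells, which numbered 16, 7, 46 and 8, had Ctsd at 315, 317, 428 and 360 CPM in WT SC, KO SC, WT IP and KO IP, above its levels in T cells of the same libraries, with counting intervals that were apart in all but KO IP. NK cells had no Ctsh or Ctsf UMI in any library, where 3 UMIs would have been 7.37 CPM in WT IP. Neutrophils in KO SC (10 cells) and KO IP (22 cells) had Ctsd at 599 and 694 CPM and 0 Ctsc UMIs, where 3 UMIs would have been 64.1 and 26.7 CPM. Those in WT SC (5 cells) and WT IP (3 cells) had Ctsd at 606 and 850 CPM. They had 2 Ctsc UMIs in WT SC, at 71.2 CPM, and 0 in WT IP, too few cells to compare.

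Mesothelial cells, the lining of the visceral depot, were counted mainly in KO IP, where 31 cells carried 1534554 UMIs. They had Ctsl at 833 CPM (788 to 880) and Ctsb at 704 CPM (662 to 747), but Ctsk at 14.3 CPM, Ctsh at 9.12 CPM, Ctsc at 3.26 CPM and Ctss at 0.652 CPM. Among ASC of the same library Ctsk was at 333 CPM and Ctsh at 354 CPM. The class rule took cells as mesothelial from 4 mesothelial markers even where ASC markers led. In these 31 cells ASC markers summed to 13648 CPM and mesothelial markers to 4536 CPM.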
